A study of Sus scrofa with 6 samples.

Results

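Antiproteases, calgranulins and clusterin, secreted proteins of uterine defence, were followed in porcine endometrial epithelial cells with and without seminal exosomes. The 6 genes were SLPI, PI3 and WFDC2 of the whey acidic protein (WAP) family, S100A8 and S100A12 of the S100 family, and CLU. They were taken by symbol from the deposited table, in which each symbol stood on 1 row, and they made up 6 of the 10915 genes with values. They were chosen by name with their FPKM difference between the exosome and control libraries already known, so their values in that comparison are a description with no test.

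The cells were primary cultures at passage 3, prepared from the uteri of healthy slaughtered pigs. All were grown in medium with fetal bovine serum on collagen-coated plates. The exosome group (3 libraries) received 10 µg per well of exosomes for 48 h. These vesicles had been precipitated from the sperm-rich fraction of boar seminal fluid. The control group (3 libraries) received no exosomes, and a vehicle treatment is not mentioned. The labels leave unsaid if the 3 libraries per group stand for different pigs or wells, so the p-values rest on a spread between libraries that may be only technical. Age, cycle stage and breed of the pigs are likewise not given.

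WAP proteins are small secreted proteins with a compact, cysteine-rich fold, and several of them block the serine proteases that neutrophils release. SLPI inhibits neutrophil elastase and cathepsin G and also kills microbes. PI3 (elafin) inhibits elastase and proteinase 3 and is fixed to the matrix by transglutaminase. WFDC2 (HE4) is abundant in epithelia of the reproductive tract, and its protease targets are less well defined. S100A8 (calgranulin A) pairs with S100A9 to form calprotectin, which withholds zinc and manganese from bacteria. S100A12 (calgranulin C) is a ligand of the receptor AGER. Clusterin, encoded by CLU, is an extracellular chaperone that also restrains the terminal complement complex.

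On the Sscrofa11.1 assembly, the RefSeq gene table places PI3 at chr17:47522402-47524451, SLPI at chr17:47595804-47598364 and WFDC2 at chr17:47816452-47824087. The gaps were 71.4 kb from PI3 to SLPI and 218 kb from SLPI to WFDC2. S100A8 lies at chr4:96209670-96210603 and S100A12 at chr4:96225691-96227030, 15.1 kb apart, and CLU lies at chr14:11336585-11352569. These positions were matched by symbol. No sequence of these genes was used here.

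Levels were deposited as FPKM, fragments per kilobase of transcript scaled to the size of the library, so genes can be compared per length. No counts came with them, and the depth of the libraries is unknown. CLU had the highest mean over the 6 libraries (922 FPKM), followed by WFDC2 (901 FPKM), SLPI (558 FPKM), S100A12 (387 FPKM), S100A8 (30.3 FPKM) and PI3 (12.05 FPKM). CLU and WFDC2 did not differ beyond their spread, since CLU was above WFDC2 in 4 of 6 libraries. Every other neighbouring pair kept its order in all 6 libraries. By mean level CLU and WFDC2 each stood above 98.9% of the genes with values, SLPI above 98.3%, S100A12 above 97.6%, S100A8 above 69.8% and PI3 above 43.8%.

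The 3 WAP genes and CLU had lower means in the exosome group, and the 2 calgranulins had higher means. SLPI was at 586, 612 and 665 FPKM in the controls and at 448, 476 and 559 FPKM in the exosome libraries (replicates 1, 2 and 3). All 3 exosome libraries lay below the controls, with exosome replicate 1 lowest. The means were 621 ± 40.1 and 495 ± 57.8 FPKM (SD, n = 3), a difference of -20.3%, with a log2 difference of -0.33 and an SE of 0.086. Log2 differences are exosome minus control on the scale log2(FPKM + 1), which understates the change of genes with low values. In bulk RNA, fewer cells that make a transcript and less of it per cell cannot be told apart.

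WFDC2 was at 981, 1036 and 921 FPKM in the controls and at 679, 843 and 947 FPKM in the exosome libraries. The groups overlapped, because exosome replicate 3 lay above control replicate 3, while exosome replicate 1 was far below the rest. Mean levels were 979 ± 57.3 and 823 ± 135 FPKM (SD, n = 3; log2 difference -0.26, SE 0.11). Without exosome replicate 1 the log2 difference was -0.13. PI3 was at 14.8, 12.9 and 12.2 FPKM in the controls and at 9.28, 13.7 and 9.43 FPKM in the exosome libraries. Exosome replicates 1 and 3 lay below the controls, and exosome replicate 2 lay among them. The PI3 means were 13.3 ± 1.34 and 10.8 ± 2.54 FPKM (log2 difference -0.29, SE 0.14), and the log2 difference was -0.46 without exosome replicate 2. The RefSeq table lists a related WAP inhibitor, SPAI-2, next to PI3. How reads were divided between such related genes is not stated, so the PI3 level is uncertain.

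CLU was at 992, 1035 and 1035 FPKM in the controls, a spread of 2.47% of the mean. The exosome libraries were at 717, 940.1 and 811 FPKM, all below the controls, with replicate 2 closest to them. Mean levels were 1021 ± 25.2 and 823 ± 112 FPKM (SD, n = 3), a difference of -19.4% (log2 difference -0.32, SE 0.09). CLU had the tightest control values of the 6 genes. The control coefficient of variation ran from 4.03% for S100A12 to 10.1% for PI3 in the others, beside a median of 5.30% over all genes tested.

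S100A12 was at 374, 347 and 369 FPKM in the controls and at 437, 349 and 447 FPKM in the exosome libraries. S100A8 was at 29.9, 27.1 and 27.2 FPKM in the controls and at 37.2, 23.5 and 37.1 FPKM in the exosome libraries. In both genes exosome replicates 1 and 3 stood above every control, but replicate 2 did not. It lay within the controls for S100A12 and below all of them for S100A8. The S100A12 means were 363 ± 14.7 and 411 ± 53.8 FPKM (SD, n = 3; log2 difference 0.17, SE 0.093), and the S100A8 means were 28.05 ± 1.57 and 32.6 ± 7.89 FPKM (log2 difference 0.18, SE 0.16). The SE of S100A8 is nearly as large as the difference. S100A8 moved the most when libraries were left out, to 0.39 without exosome replicate 2, 0.07 without exosome replicate 1 and 0.08 without exosome replicate 3. S100A12 moved to 0.28 without exosome replicate 2 and 0.10 without exosome replicate 3.

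**Figure D1:**
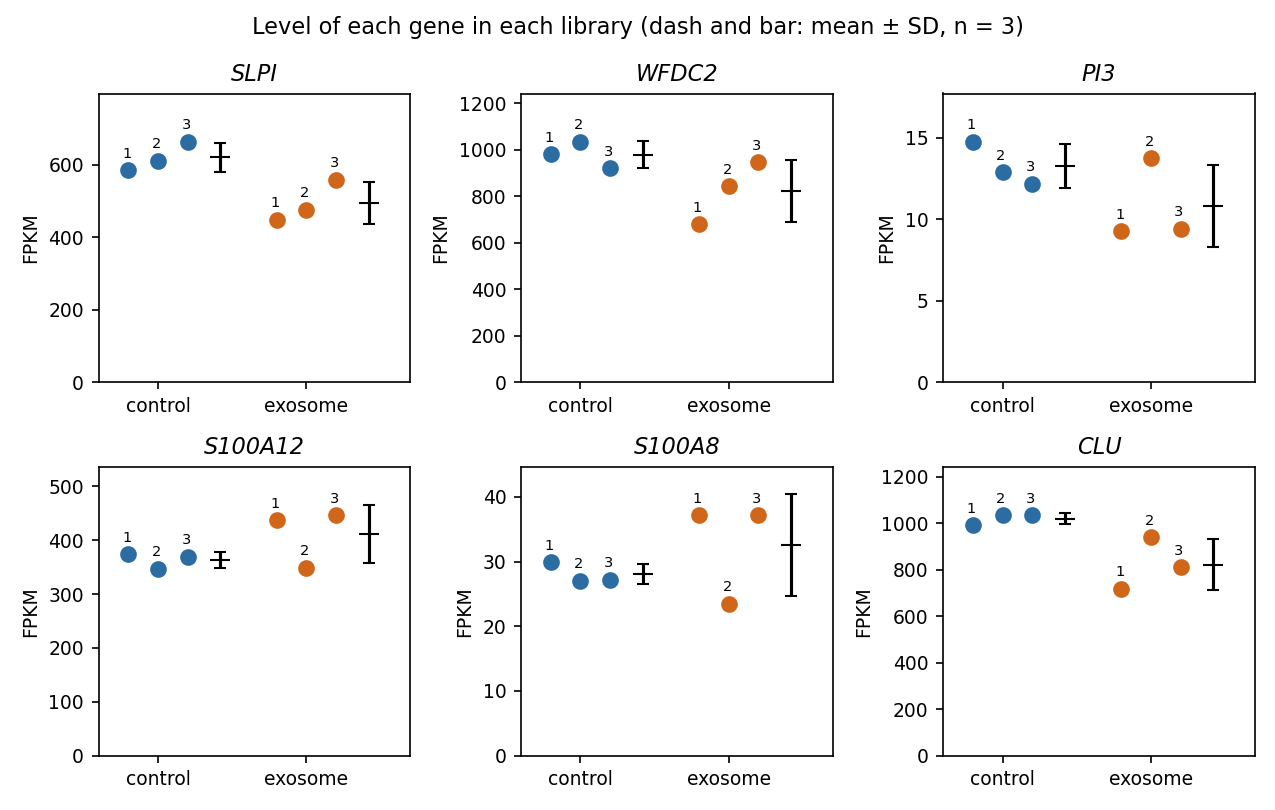
FPKM (vertical axis, from 0) of the 6 genes in the 3 control (blue) and 3 exosome (orange) libraries, numbered by replicate, with the mean ± SD beside each group. The exosome libraries lie below all controls for SLPI and CLU, and exosome replicate 2 sits apart from replicates 1 and 3 for PI3, S100A12 and S100A8.

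None of the 6 genes passed an adjusted p of 0.05 in limma (Benjamini-Hochberg over all genes), beside 0% of the 10846 genes tested. All 6 had passed the filter on low values. At an unadjusted p under 0.05 there were 3 of the 6 (SLPI, CLU and WFDC2, all lower), beside 12.6% of all genes in either direction and 7.5% for lower genes. The groups did not overlap for 2 of the 6 (SLPI and CLU, lower), beside 18.7% of all genes in either direction, 10.4% for lower and 8.29% for higher genes. Nothing is read from these shares, since the comparison had served to choose the genes. The median log2 difference of all genes tested was -0.0023.

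Without exosome replicate 2, 297 genes (2.74%) passed, and 4 of the 6 were among them. These calls are no support either, since the same comparison had served to choose the genes. The library left out was, over all genes tested, nearer to control replicates 2 and 3 than to the other exosome libraries. PI3 and CLU were lower (log2 differences -0.46 and -0.42), and S100A8 and S100A12 were higher (0.39 and 0.28). SLPI and WFDC2 did not pass at -0.31 and -0.29, and WFDC2 still overlapped between the groups. Among the 6 leave-one-out fits, no gene of the 6 changed sign, nor did any under the other scalings or pseudocounts. A filter cannot change a log2 difference.

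**Figure D2:**
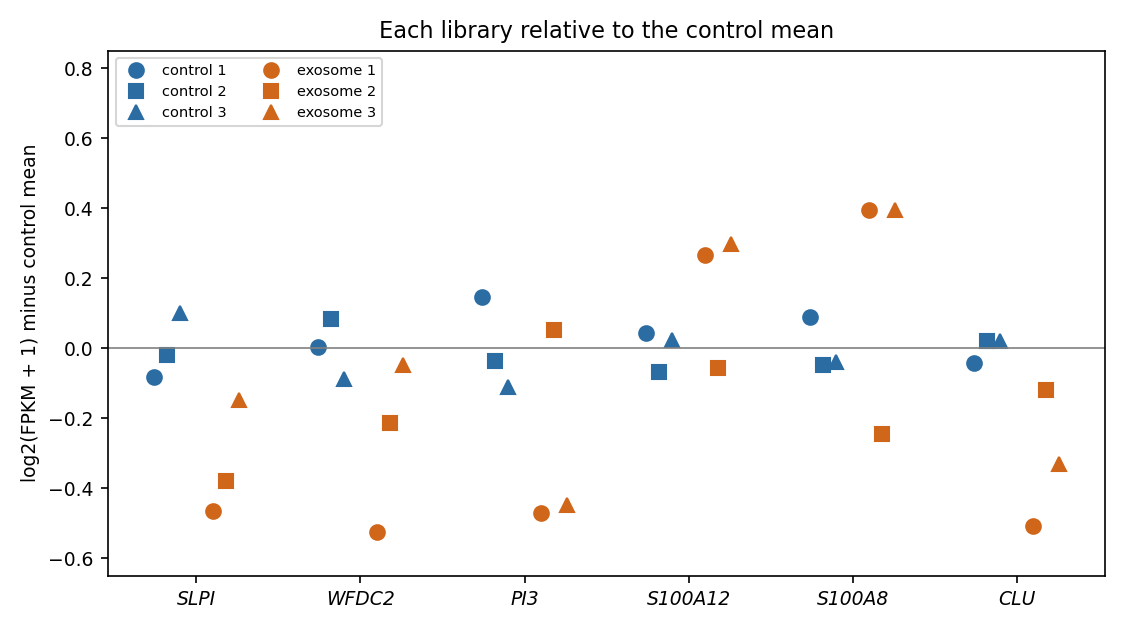
Log2(FPKM + 1) of each library minus the control mean (vertical axis) for the 6 genes, with controls in blue and exosome libraries in orange and 1 symbol per replicate number. Exosome replicate 1 is the lowest library for SLPI (-0.47), WFDC2 (-0.53), PI3 (-0.47) and CLU (-0.51), and exosome replicate 2 is the only exosome library below the control mean for S100A12 (-0.06) and S100A8 (-0.25).

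The genes differed among themselves in which exosome libraries stood apart. Exosome replicate 2 also stood apart over all genes tested, so its place is not particular to these genes. The SD of its log2 ratios was 0.203 and 0.201 to control replicates 2 and 3, and 0.231 to control replicate 1. To exosome replicates 1 and 3 it was 0.244 and 0.251. SLPI and WFDC2 followed 1 order, with exosome replicate 1 lowest, then replicate 2 and then replicate 3. PI3 and CLU followed another, with replicates 1 and 3 low and replicate 2 nearest the controls, and the calgranulins were the mirror of this. The likeness of 2 genes was measured as the root mean square difference of their log2(FPKM + 1), each centred on its own mean, over the 6 libraries. It was 0.11 between S100A8 and S100A12, 0.12 between SLPI and WFDC2, and 0.13 between CLU and each of PI3 and WFDC2, where 0 would be the same pattern. CLU and SLPI were 0.14 apart. PI3 was farther from the other WAP genes, at 0.21 from WFDC2 and 0.25 from SLPI, which is about the median distance of all genes from PI3. A calgranulin and any of the other 4 genes were 0.28 to 0.45 apart. All points share the 6 libraries and the difference by which the genes were chosen, so these distances only describe.

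Likeness was computed over 6728 genes whose mean reached 10 FPKM. The nearest to WFDC2 was CST6 (0.045), which encodes the cysteine protease inhibitor cystatin M. CST6 was at 148, 159 and 146 FPKM in the controls and at 113, 130.2 and 147 FPKM in the exosome libraries. As for WFDC2, exosome replicate 1 was lowest and exosome replicate 3 lay within the controls. The nearest to CLU were PLA2G16, a phospholipase (0.030), and ERBB3, a receptor of the epidermal growth factor receptor family (0.035). S100A12 was nearest to MMACHC, a cobalamin-processing protein (0.028), and UBAP2L (0.030), and S100A8 to HSDL2 (0.048) and PTGR2, a prostaglandin reductase (0.052). SLPI was nearest to ANKRD35 (0.050) and MOB3A (0.056), and PI3 to an unnamed gene (ENSSSCG00000023839, 0.067) and C15orf62 (0.069). The second nearest to WFDC2 was also unnamed (ENSSSCG00000029041, 0.047). The median distance of all genes compared ran from 0.17 for S100A12 to 0.25 for PI3 and S100A8.

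Ratios between genes were also taken within each library. There were 12.5, 12.8 and 13.6 FPKM of S100A12 per FPKM of S100A8 in the controls and 11.7, 14.9 and 12.03 in the exosome libraries (12.97 ± 0.529 and 12.9 ± 1.72, SD, n = 3). The mean ratio of the calgranulins was thus nearly the same in both groups, with a wider spread in the exosome group. No exosome ratio lay within the control range, since replicates 1 and 3 were below it and replicate 2 above it. SLPI over S100A12 was 1.57, 1.76 and 1.801 in the controls and 1.03, 1.36 and 1.252 in the exosome libraries. All 3 exosome ratios lay below the controls, which only describes, since both genes were chosen with their differences known. WFDC2 over SLPI was 1.58 ± 0.172 in the controls and 1.66 ± 0.131 in the exosome libraries, and these overlapped. Summed over the 6 genes, the level was 3026 ± 45.7 FPKM in the controls and 2594 ± 245 FPKM in the exosome libraries, or 0.415% ± 0.007 and 0.369% ± 0.0292 of all FPKM.

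S100A9, the partner of S100A8 in calprotectin, was far lower than both calgranulins described. It was at 9.23, 7.71 and 6.15 FPKM in the controls and at 9.54, 6.35 and 8.88 FPKM in the exosome libraries, and the groups overlapped (log2 difference 0.09, SE 0.17, adjusted p = 0.863). S100A8 stood 3.23-fold to 4.43-fold above S100A9 per length, and S100A12 40.5-fold to 60.0-fold above it. S100A9 was named after its values were seen.

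The other S100 genes, mostly small calcium-binding proteins, were led by S100A2 at 12148, 12601 and 12406 FPKM in the controls and 9918, 10924 and 11958 FPKM in the exosome libraries. Of 17 listed genes 11 were tested, and 0 passed an adjusted p of 0.05 in limma. By unadjusted p under 0.05 there were 4 lower (S100A1, S100A16, S100A2 and, named after its values were seen, S100A14) and 0 higher, beside 7.5% and 5.06% of all genes. The list median was -0.07, and 0.0024 with quantile normalization. S100A1 was at 767 ± 4.95 and 651 ± 65.4 FPKM (SD, n = 3; log2 difference -0.24, adjusted p = 0.290), and S100A16 at 419 ± 2.00 and 384 ± 12.8 FPKM (log2 difference -0.12, adjusted p = 0.323). S100A2 had a log2 difference of -0.18 (adjusted p = 0.348), and the abundant S100A11 one of -0.04 (adjusted p = 0.805). In chromosome order, the log2 differences were -0.24 for S100A1, -0.16 for S100A14, -0.12 for S100A16, -0.18 for S100A2, -0.07 for S100A3, 0.0048 for S100A4, -0.10 for S100A5, 0.18 for S100A8, 0.17 for S100A12 and 0.09 for S100A9. None of them passed, and other genes of the cluster, S100A13 among them, were not analysed here.

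**Figure D3:**
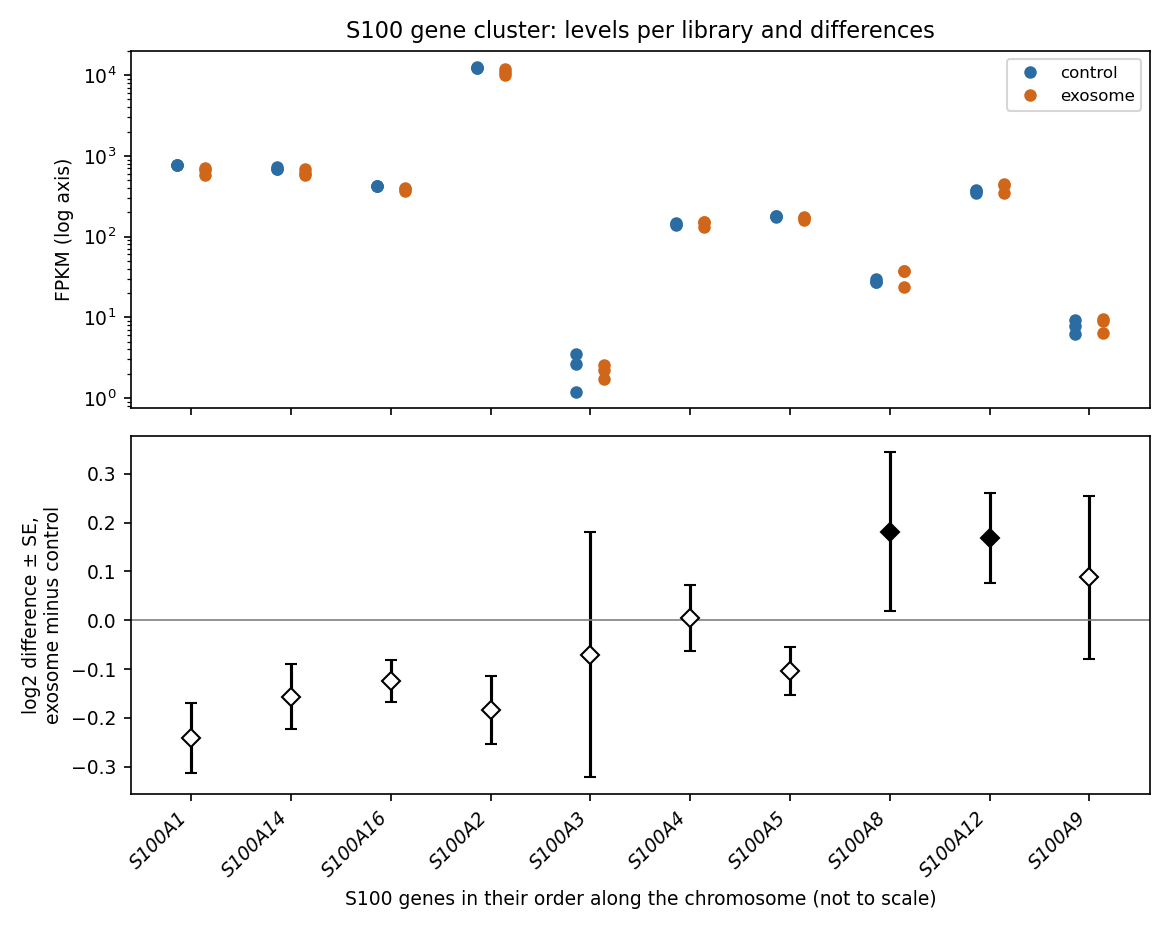
Upper panel, FPKM (log axis) of the S100 genes of 1 chromosome cluster in the control (blue) and exosome (orange) libraries, in chromosome order. Lower panel, log2 difference ± SE of exosome minus control, with S100A8 and S100A12 filled; the differences run from -0.24 for S100A1 to 0.18 for S100A8.

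More of the other antiproteases were lower than higher in the exosome libraries, without passing. Of 49 listed genes 11 were tested, with 7 lower and 4 higher, a median log2 difference of -0.10 and 0 past an adjusted p of 0.05 in limma. That median was -0.050 with libraries scaled to the same sum and -0.053 with quantile normalization. At an unadjusted p under 0.05, 5 were lower and 0 higher, beside 7.5% and 5.06% of all genes. The groups did not overlap for 3, all lower, beside 10.4% of all genes. These shares also stand beside the counts of the lists that follow. All lists, the S100 list included, were chosen with earlier results of these data known, so nothing is read from their counts. A lean to lower values was not particular to antiproteases, and the median over all genes tested was -0.0023. The epithelial marker list had 11 genes lower and 1 higher (median -0.16). The stromal marker list had 6 lower and 0 higher (median -0.24). SERPINB7, a serpin of epithelia, was at 5.80, 5.68 and 6.201 FPKM in the controls and 3.82, 4.57 and 4.49 FPKM in the exosome libraries (log2 difference -0.38, adjusted p = 0.234). SERPINB1, an intracellular inhibitor of neutrophil elastase, was at 17.3 ± 0.962 and 14.8 ± 0.77 FPKM (log2 difference -0.22, adjusted p = 0.304), and SERPINB8 had a log2 difference of -0.17 (adjusted p = 0.336). The Kunitz inhibitors SPINT2 and SPINT1, the most abundant of the list, were at 647 ± 27.6 and 605 ± 58.2 FPKM and at 359 ± 5.47 and 324 ± 25.6 FPKM (adjusted p = 0.594 and 0.370). WFDC1, another WAP gene and one picked with its values in view, stood at 1.48 ± 0.0414 and 1.52 ± 0.331 FPKM.

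Serine proteases, the enzymes such inhibitors act on, had 10 of 14 tested genes lower, and 0 passed in limma. Their median log2 difference was -0.11, or -0.057 with libraries scaled to the same sum. At an unadjusted p under 0.05 there were 4 lower and 0 higher, beside 7.5% and 5.06% of all genes. HTRA1, a secreted protease, was at 78.2, 75.4 and 75.5 FPKM in the controls and 65.4, 63.5 and 66.3 FPKM in the exosome libraries (log2 difference -0.23, adjusted p = 0.198). The groups were well apart for HTRA1, and also for the membrane proteases TMPRSS11D and TMPRSS2 (log2 differences -0.35 and -0.24, adjusted p = 0.234 and 0.264). The most abundant were PLAU, the urokinase plasminogen activator, at 366 ± 12.1 and 341 ± 51.3 FPKM, and ST14 (matriptase) at 344 ± 3.46 and 311 ± 20.3 FPKM (adjusted p = 0.663 and 0.350). ELANE, CTSG and PRTN3, the neutrophil proteases inhibited by SLPI and elafin, were not analysed here.

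Among receptors and binding partners, 9 of 22 listed genes were tested, and 0 passed in limma. At an unadjusted p under 0.05, 1 was higher and 2 were lower, and the list median was -0.04, or 0.0098 with libraries scaled to the same sum. VLDLR, a lipoprotein receptor that binds clusterin, was at 43.3, 42.0 and 44.6 FPKM in the controls and 50.3, 51.3 and 47.4 FPKM in the exosome libraries, all above the controls (log2 difference 0.19, adjusted p = 0.270). GRN, progranulin, which SLPI protects from cleavage, was at 320 ± 10.1 and 286 ± 12.1 FPKM (log2 difference -0.16, adjusted p = 0.300). NPTN was at 56.1 ± 0.927 and 51.7 ± 1.696 FPKM (adjusted p = 0.382), and ANXA2 at 3780 ± 134 and 3727 ± 335 FPKM (adjusted p = 0.926). The S100 receptors AGER and TLR4, chosen after their values were seen, were at 3.81 ± 0.145 and 3.97 ± 0.0798 FPKM and at 2.76 ± 0.329 and 2.35 ± 0.174 FPKM.

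Of the other antimicrobial proteins 10 of 35 listed genes were tested, with 6 lower, 4 higher and a median of -0.11. That median was -0.018 without control replicate 1, -0.053 without control replicate 2, -0.044 without exosome replicate 2 and -0.053 with a pseudocount of 5. In limma 0 passed, and 1 was lower at an unadjusted p under 0.05. PBD-1, a porcine beta-defensin, was at 3.85, 3.49 and 2.36 FPKM in the controls and 0.938, 2.77 and 1.47 FPKM in the exosome libraries (log2 difference -0.67, adjusted p = 0.338). CCL20, an antimicrobial chemokine, was at 5.80, 1.99 and 2.38 FPKM against 9.47, 2.44 and 8.99 FPKM (log2 difference 0.80, adjusted p = 0.516), with exosome replicate 2 again apart from the other exosome libraries. LCN2, an iron-withholding lipocalin, was at 29.8 ± 2.51 and 25.3 ± 5.89 FPKM, DMBT1, a mucosal scavenger protein, at 56.5 ± 2.84 and 54.4 ± 13.1 FPKM, and lysozyme (LYZ) at 0.834 ± 0.291 and 1.253 ± 0.263 FPKM (adjusted p = 0.545, 0.868 and 0.456).

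Complement, which clusterin restrains, was represented by 4 tested genes of 23, and limma called 0 of them (0 with an unadjusted p under 0.05). CD55, a membrane inhibitor of complement, was at 159 ± 10.2 and 145 ± 23.5 FPKM, CFI, a soluble one, at 15.6 ± 1.36 and 17.5 ± 2.17 FPKM, and CD46 at 2.15 ± 0.164 and 1.94 ± 0.426 FPKM (adjusted p = 0.601, 0.558 and 0.731). Epithelial inflammatory regulators, cytokines and factors known to act on genes of this kind, had 21 of 31 tested, 12 lower and 9 higher. Their median was -0.05, or 0.0040 with libraries scaled to the same sum, and limma called 0 of them. With an unadjusted p under 0.05 there were 2 higher and 3 lower. ELF3, a transcription factor of epithelia, was at 195 ± 6.18 and 165 ± 9.22 FPKM (adjusted p = 0.234), CEBPD at 87.6 ± 2.34 and 76.3 ± 3.27 FPKM (adjusted p = 0.249), IL1A at 43.5 ± 4.25 and 57.8 ± 9.59 FPKM (adjusted p = 0.304), and EHF at 139 ± 9.49 and 126 ± 2.84 FPKM (adjusted p = 0.392). IL1A was at 66.1, 47.3 and 60.0 FPKM in exosome replicates 1, 2 and 3, so replicate 2 was the lowest of them, as for the calgranulins.

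**Figure D4:**
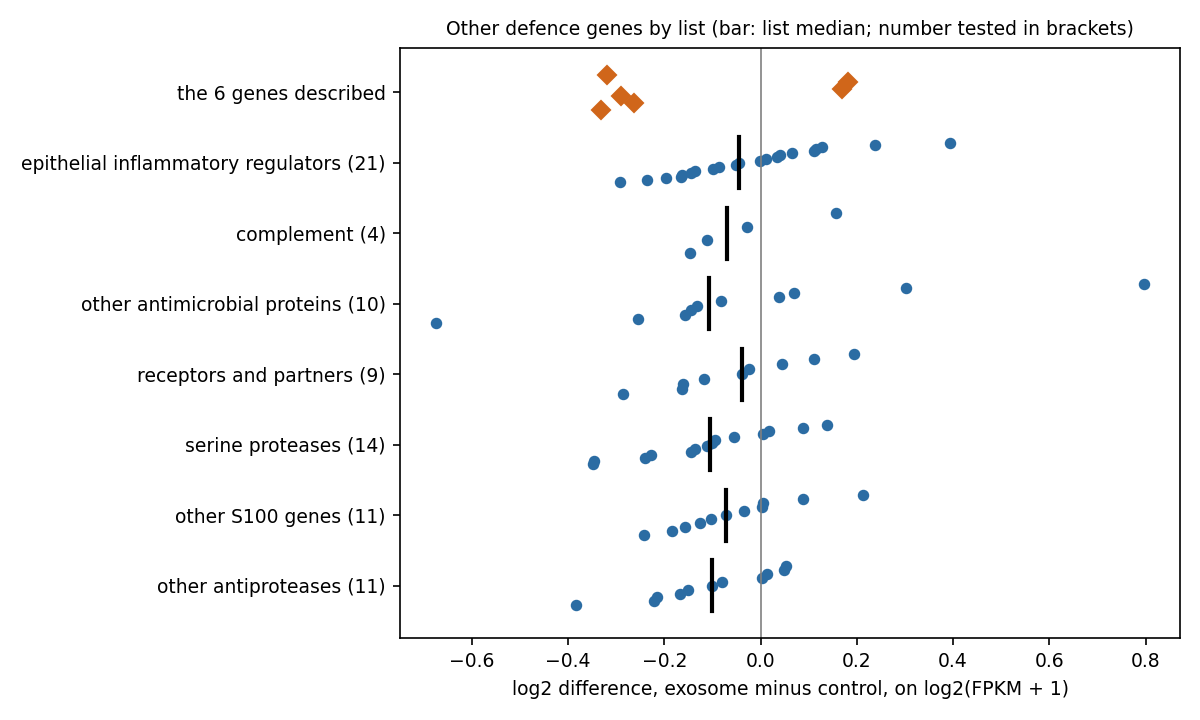
Log2 difference of exosome minus control (horizontal axis) for each tested gene of the 7 lists (blue points, with the list median as a bar) and for the 6 genes described (orange). The list medians lie between -0.11 and -0.04, and the 6 genes fall at -0.33 to -0.26 and 0.17 to 0.18.

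Without exosome replicate 2, SPINT1, TMPRSS2, F2RL1 and ELF3 passed as lower genes of these lists and IL1A as a higher one, beside 2.74% of all genes. These 5 were 1 of 11 antiproteases, 1 of 14 proteases, 1 of 9 receptors and partners and 2 of 21 regulators, and no other S100, antimicrobial or complement gene passed. Of the cell type markers given below, 3 of 12 epithelial ones passed as lower (CD24, ELF3 and, named after its values were seen, CLDN4). So did 2 of 6 stromal ones (CD90 and TAGLN), and no gene of the other marker lists passed. F2RL1, a receptor cleaved by trypsin-like proteases, was at 58.5 ± 3.09 and 48.4 ± 9.77 FPKM over all libraries and was named after its values were seen.

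The culture expressed part of the listed markers of its labelled cell type. CDH1, KRT7, PAX8 and FOXA2 were among the symbols not found, and the purity of the culture was not tested. Of 19 epithelial markers 12 were measured, led by CD24 (4008 ± 76.2 and 3383 ± 401 FPKM), KRT19 (3193 ± 88.8 and 2925 ± 221 FPKM) and KRT8 (3037 ± 48.0 and 2800.2 ± 118 FPKM). Their summed level was 14646 to 15109 FPKM in the controls and 12563 to 13831 FPKM in the exosome libraries, and it was also lower when each library was scaled to a sum of 1000000 FPKM (20305 to 20666 against 18201 to 19528 FPKM). This sum moved with the lower SLPI, WFDC2, PI3 and CLU, and its part in them was not tested. Per 1000 FPKM of epithelial markers, SLPI was at 38.8, 40.7 and 45.4 FPKM in the controls and 35.7, 34.4 and 41.5 FPKM in the exosome libraries, so the groups overlapped. CLU also overlapped on that scale, at 65.6, 68.9 and 70.7 FPKM against 57.1, 68.0 and 60.1 FPKM. S100A12 no longer did, at 24.8, 23.1 and 25.2 FPKM against 34.8, 25.23 and 33.1 FPKM, with exosome replicate 2 just above the highest control. Because the marker sum was lower in the exosome libraries, a gene with the same FPKM in both groups is higher on that scale. The share of all genes whose groups do not overlap on it was not computed, so nothing is read from this. On that scale the means of SLPI, PI3, WFDC2 and CLU differed by -10.6%, -8.80%, -5.88% and -9.74% in the exosome group, and those of S100A8 and S100A12 by 31.5% and 27.5%. The marker list was chosen with earlier results of these data known.

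S100A8 and S100A12 are abundant in neutrophils and monocytes, so markers of those cells are given beside them. Of 18 such symbols 2 were measured, CD68 (on 2 rows) at 6.50 ± 0.955 and 5.88 ± 1.02 FPKM on the higher row, and CD14 at 3.44 ± 0.473 and 3.33 ± 0.864 FPKM. Their summed level was 9.78 to 11.8 FPKM in the controls and 8.06 to 11.12 FPKM in the exosome libraries, and none was listed at 0. CSF3R, MPO, ELANE, CXCR2 and ITGAM were not analysed here. Of 17 markers of all leukocytes 3 were measured, LCP1, LAPTM5 and CD79B, with sums of 146 to 156 FPKM in the controls and 115 to 147 FPKM in the exosome libraries. LCP1 made up most of this sum (146 ± 5.39 and 125 ± 16.5 FPKM). Neither sum was higher in the exosome group. Their part in the calgranulin values was not tested.

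Markers of stratified epithelium, in which elafin and calgranulins are also known, numbered 6 of 21. Their sums were 92.3 to 107 FPKM in the controls and 73.5 to 91.6 FPKM in the exosome libraries, led by KRT14 (51.8 ± 3.81 and 35.0 ± 5.93 FPKM), KRT13 (22.5 ± 0.851 and 23.4 ± 7.57 FPKM) and DSG3 (18.2 ± 3.43 and 17.2 ± 1.08 FPKM). Stromal markers (6 of 16) summed to 2915 to 3173 FPKM and 2353 to 2607 FPKM. They were led by CD90 (2328 ± 93.7 and 1849 ± 69.4 FPKM), VIM (557 ± 52.4 and 505 ± 63.6 FPKM) and TAGLN (133 ± 7.14 and 104 ± 32.3 FPKM). The stratified and stromal sums were lower in the exosome group, as was that of the epithelium. Endothelial KDR was at 1.58 ± 0.354 and 1.07 ± 0.0983 FPKM, and TUBB4B, the 1 ciliated cell marker measured of 9, at 331 ± 21.5 and 340 ± 29.3 FPKM. None of the 18 sperm and seminal vesicle markers was among the genes analysed.

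**Figure D5:**
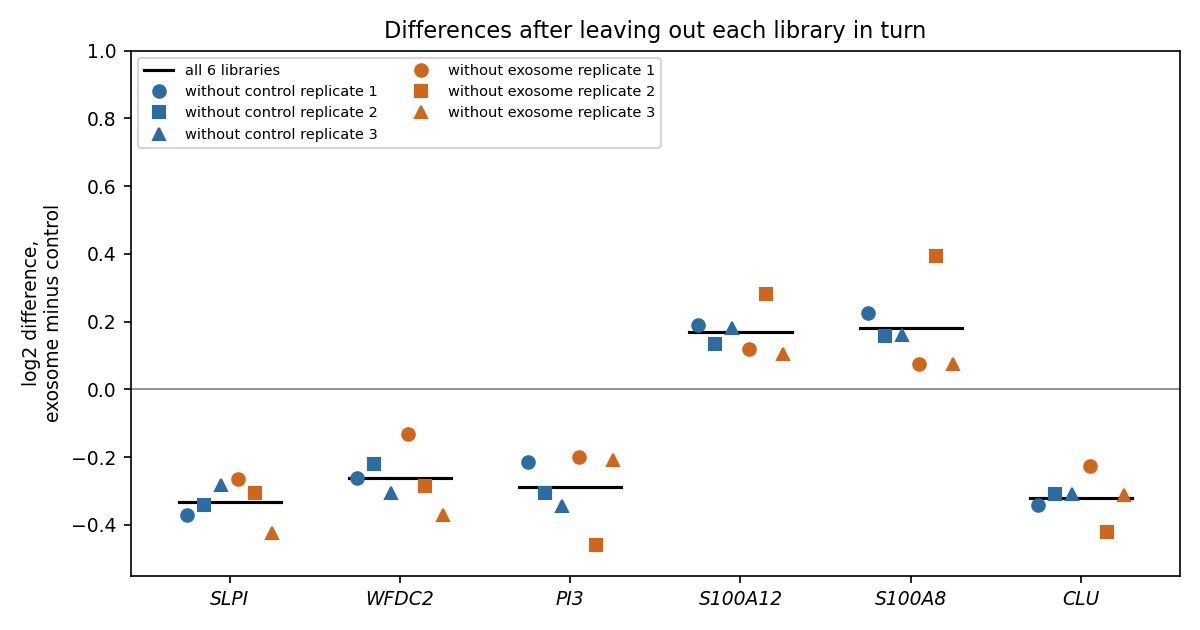
Log2 difference of exosome minus control (vertical axis) for the 6 genes with all libraries (black lines) and with each library left out in turn (points, blue for a control and orange for an exosome library left out). No gene crosses 0; the range is widest for S100A8, from 0.07 to 0.39.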

How the data were processed

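Per the submitters' processing notes, the authors used bcl2fastq 1.8.4, TopHat, Cufflinks and the Sscrofa11.1 assembly. The roles and other versions of these tools, the annotation and any filter were not given in the sources used here. No header states a unit, and FPKM was inferred for the deposited columns from Cufflinks and from the values. The kit was a stranded one for mRNA, per the labels' protocols. Of 10916 rows, 1 had no values; no value was 0, and every gene reached at least 1.06 FPKM in some library, so silent genes cannot be seen.

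Groups and columns were matched by sample title. Values were transformed as log2(FPKM + 1), and the 10846 genes whose mean reached 1 FPKM were fitted with limma 3.58.1 in R 4.3.3 (two-sided, with an intensity trend and 4 residual degrees of freedom, Benjamini-Hochberg over all genes tested, threshold 0.05). All adjusted p-values are from this fit, which was tested on simulated data. Figures used Python 3.11.15 and matplotlib 3.10.9. The 6 genes and the 15 lists (7 of pathways, 8 of cell types) were chosen with earlier results of these data known. Of 332 listed symbols 110 were found, 1 of them (SPINT1) through the reference name table. Named genes were the 6, the 3 smallest p and 2 highest means of each pathway list, the 3 highest means of each marker list, and the 2 genes nearest in pattern to each of the 6; others are said to be named after their values were seen. The 15 alternatives changed the pseudocount, the filter, the scaling or the intensity trend, added a replicate block, or left out a library.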

Additional observations from a re-analysis of the deposited data

How the results depend on the processing

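The log2 differences of the 6 genes kept their sign under all 15 alternatives. Some of these cannot change a log2 difference and left it the same. They are the changed filters (none, or a mean of at least 5 FPKM), the fit without an intensity trend and the replicate block. Under the others its size moved. Leaving out 1 library gave -0.42 to -0.26 for SLPI, -0.46 to -0.20 for PI3, -0.37 to -0.13 for WFDC2, -0.42 to -0.22 for CLU, 0.07 to 0.39 for S100A8 and 0.10 to 0.28 for S100A12. Other settings gave -0.33 to -0.28, -0.31 to -0.22, -0.26 to -0.21, -0.32 to -0.27, 0.16 to 0.23 and 0.17 to 0.22.

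The count of genes past the threshold, 0, ranged from 0 to 297 when a library was left out. It was 297 without exosome replicate 2 (93 higher, 204 lower), and 1 without control replicate 3 (ENSSSCG00000027411, named after its values were seen), where the unadjusted count was 887. It was 0 under the 9 settings that kept all libraries. Genes whose groups did not overlap ranged from 2651 to 4435 with a library left out, against 2024. Fewer libraries overlap less often, and each of these fits had 1 library fewer. The 4435 was without exosome replicate 2, and the next highest count was 3341, without exosome replicate 3. List medians with a library left out ranged from -0.17 to -0.064 for other antiproteases, -0.11 to -0.023 for other S100 genes, -0.17 to -0.085 for serine proteases, -0.086 to -0.022 for receptors and partners, -0.15 to -0.018 for other antimicrobial proteins, -0.081 to -0.0080 for complement and -0.051 to -0.010 for epithelial inflammatory regulators. Scaling to the same sum gave -0.050 for other antiproteases, -0.057 for serine proteases and 0.0098 for receptors and partners; it moved the median of all genes to 0.045. Quantile normalization gave -0.053 for other antiproteases and 0.0024 for other S100 genes. The causes were not tested.

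With the replicate number as a block, 0 genes passed and 1329 had an unadjusted p under 0.05, against 1362 without the block. The block lowered the SE of each of the 6 genes, from 0.086 to 0.051 for SLPI and from 0.14 to 0.13 for PI3. The numbers were not treated as pairs, because no label says that a number marks a shared animal, batch or day. Same-numbered libraries had correlations of deviations of -0.07 to 0.16, and libraries with other numbers ranged from -0.27 to 0.17. These few values cannot settle if the libraries were paired. Depth is unknown, so the counting error of PI3, S100A8 and S100A9, the lowest of the genes described, cannot be given.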

Other observations

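Between PI3 and WFDC2 on chromosome 17 the RefSeq table lists 19 genes including both. Rows of the deposited data without a symbol could not be matched to them, so a gene not found may still have values. By symbol, 6 were found with values. Besides the 3 WAP genes these were PTI, SDC4 and DBNDD2, named here for their position after their values were seen. PTI, a trypsin inhibitor gene, was at 9.79, 10.7 and 8.99 FPKM in the controls and 6.45, 8.23 and 6.62 FPKM in the exosome libraries, all below the controls (log2 difference -0.42, SE 0.10). SDC4, a heparan sulfate proteoglycan of the cell surface, was at 451 ± 25.8 and 411 ± 33.6 FPKM (SD, n = 3; log2 difference -0.13), and its groups overlapped. DBNDD2 was at 1.34 ± 0.0605 and 1.24 ± 0.143 FPKM (log2 difference -0.07), also overlapping. None of the 3 passed in limma over all genes tested.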
